A study of Mus musculus with 2 samples.

Results

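The MHC class II presentation genes are the 10 genes *H2-Aa*, *H2-Ab1*, *H2-Eb1*, *Cd74*, *Ciita*, *H2-DMa*, *H2-DMb1*, *H2-DMb2*, *H2-Oa* and *H2-Ob*, taken by symbol from the 55386 features counted in each library. Each symbol matched 1 feature in both libraries. Immune cells positive for CD45 were sorted from aortic adventitia and captured singly, from *Rank*-Cre *Rosa26*-eYFP mice (strain label RankCreRosa26eYFP) of about 16 weeks. The steady state library held untreated cells of 3 pooled animals, and the AngII library held cells of 2 pooled animals given angiotensin II, a peptide hormone that raises blood pressure and inflames the arterial wall, for 10 days at 1.8 µg/kg/min. Animals of both groups carry Cre recombinase at the *Rank* gene (*Tnfrsf11a*) and a reporter for enhanced yellow fluorescent protein (eYFP), so that descendants of erythro-myeloid progenitors keep the reporter, whose transcript is called *Yfp* here. Cells from separate animals of a pool cannot be told apart, and there is 1 library per condition.

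A class II molecule is a pair of an alpha and a beta chain that shows peptides to CD4+ T cells. *H2-Aa* and *H2-Ab1* encode the pair of I-A, and *H2-Eb1* encodes the beta chain of I-E. *Cd74* encodes the invariant chain, which fills the peptide groove and guides new molecules to the endosome. There H2-M, built from *H2-DMa* and either *H2-DMb1* or *H2-DMb2*, removes the last piece of the invariant chain and lets peptides in, while H2-O, the pair of *H2-Oa* and *H2-Ob*, restrains H2-M in B cells and some dendritic cells. *Ciita* encodes the coactivator that switches the whole group on without binding DNA itself. Dendritic cells and B cells are the professional users of the pathway, and macrophages of the vessel wall use it to a varying degree.

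The 8 H2 genes lie within the major histocompatibility complex on chromosome 17 of GRCm38, by GENCODE M21 coordinates from *H2-Oa* (34092340 to 34095234, plus strand) through *H2-DMa* (34119541 to 34139101, plus), *H2-DMb2* (34143307 to 34151555, plus), *H2-DMb1* (34153072 to 34160230, plus), *H2-Ob* (34238903 to 34254414, plus), *H2-Ab1* (34257689 to 34269419, plus) and *H2-Aa* (34282744 to 34287823, minus) to *H2-Eb1* (34305867 to 34316674, plus). *Ciita* lies on chromosome 16 (10480059 to 10528418, plus) and *Cd74* outside both regions. The 10 genes took 2.48% of all unique molecular identifiers (UMIs, one per captured transcript) at steady state and 2.99% after AngII, of which *Cd74* alone took 1.12% and 1.32%. *H2-Ea-ps*, the broken I-E alpha gene as these files name it, had 0 UMIs in both libraries.

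RefSeq promoter windows, from 250 bases before to 50 after each gene start on GRCm38.p6, were at hand for 7 of the 10 genes, and those of *H2-Ab1*, *Ciita* and *Cd74* were not used here. The stretches below are shown because class II promoters carry a pair of known elements, the X box, read by the RFX complex, and the Y box, read by NF-Y. Each stretch is 110 bases, given 5′ to 3′ on the strand of the gene. Capitals mark the Y box letters TGATTGG and, where present, the X box core letters CNNATGATG, both of which were searched on both strands and nowhere overlapped.
H2-Oa, chr17:34092251-34092360, plus strand: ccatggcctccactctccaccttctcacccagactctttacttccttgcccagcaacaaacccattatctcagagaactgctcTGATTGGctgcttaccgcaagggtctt
H2-DMb2, chr17:34145074-34145183, plus strand: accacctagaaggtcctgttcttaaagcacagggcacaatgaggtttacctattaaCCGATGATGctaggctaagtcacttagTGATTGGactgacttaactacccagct
H2-DMb1, chr17:34153045-34153154, plus strand: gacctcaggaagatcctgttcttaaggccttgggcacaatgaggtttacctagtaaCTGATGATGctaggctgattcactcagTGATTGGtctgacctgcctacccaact
H2-Ob, chr17:34238763-34238872, plus strand: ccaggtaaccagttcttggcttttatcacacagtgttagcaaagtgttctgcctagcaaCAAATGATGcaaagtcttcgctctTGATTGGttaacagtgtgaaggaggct
H2-Aa, chr17:34287847-34287956, minus strand: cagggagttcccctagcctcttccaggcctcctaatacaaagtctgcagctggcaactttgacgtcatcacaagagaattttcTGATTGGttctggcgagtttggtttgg
H2-Eb1, chr17:34305723-34305832, plus strand: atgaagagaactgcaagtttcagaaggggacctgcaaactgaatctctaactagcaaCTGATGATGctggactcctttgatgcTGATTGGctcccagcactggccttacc
The Y box letters stood in 6 of the 7 genes and in 7.82% of 32851 RefSeq promoter windows of the same length. The X box letters stood in 4 of the 7 and in 2.75% of all windows, and both stood together in 0.174%. Where both were found, 15 to 18 bases lay between them. *H2-DMa* held neither in its 2 windows. The *H2-DMb1* and *H2-DMb2* stretches shared 89 of 110 bases at the same position (80.9%), the closest pair compared. GENCODE places the starts of *H2-Oa* and *H2-DMb1* inside the stretch shown and that of *H2-DMb2* before it.

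Cells were sorted into classes by marker genes that include none of the 10. A lineage needed UMIs of at least 2 of its 6 markers, and macrophages with at least 2 of *Lyve1*, *Folr2*, *Cd163*, *Cbr2*, *Gas6* and *F13a1* are called resident and the rest other macrophages. At steady state 291 of 306 filtered cells (95.1%) and after AngII 3320 of 4198 (79.1%) fell into 1 lineage. Median depth was 9105 and 1092 UMIs per cell, no barcode was shared, and 49.3% and 43.1% of cells held at least 2 markers of a second lineage. *Zbtb46* and *Ebf1*, used in no gate, followed the gates after AngII: the dendritic factor *Zbtb46* was at 77.9 CPM (UMIs of the gene per 1000000 UMIs of the class) in type-1, 25.7 in type-2 and 66.3 in migratory dendritic cells against 5.45 in other macrophages, and *Ebf1* was at 1332 CPM in B cells against at most 11.9 in macrophages. *Ccr2*, a receptor of recruited monocytes also used in no gate, did not separate the macrophage gates after AngII, with 1065 CPM in resident (67.7% of cells) and 1025 in other macrophages (58.6%), against 381 and 986 CPM at steady state. The resident gate depends on depth, since a deep cell shows a weak marker more readily: after AngII 1 cluster of 316 cells with a median of 13596 UMIs fell mostly in the resident gate with *Lyve1* at 1.29 CPM, and the 6 resident markers summed to 2681 CPM in resident macrophages against 6823 at steady state. For that reason macrophages are also described below by ranges of these markers and with gates set at an equal depth. Levels are CPM of the summed UMIs of a class, and brackets give exact 95% intervals for counting error only. Without replicate libraries no test between conditions, or between classes, was made.

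Conventional dendritic cells (type-1 and type-2) held the highest levels of the classical chains and *Cd74* among classes of at least 10 cells, in both libraries. Migratory dendritic cells and other macrophages came next after AngII. After AngII *H2-Aa* was at 13316 CPM (13092 to 13543) in the 94 type-2 dendritic cells, 11053 (10899 to 11209) in the 157 type-1 and 9626 (9287 to 9974) in the 37 migratory dendritic cells. Other macrophages (1197 cells) held 6880 CPM, B cells (102) 5316, resident macrophages (870) 5014, classical monocytes (223) 2046 and nonclassical monocytes (14) 1320. In nonclassical monocytes 1 cell held 119 of the 127 *H2-Aa* UMIs and 9 of the 14 cells held none, so that their place rests on that cell. The counting intervals of the other neighbours in this order did not overlap, and the closest were those of B cells (5093 to 5547) and resident macrophages (4955 to 5073). T cells (293) stood at 786 CPM and neutrophils (284) at 1762, the levels reached by classes that should lack these genes, so nonclassical monocytes were not clear of that background. The 21 cells of the mast cell gate, 18 of them with markers of a second lineage, stood at 4543 CPM, above both monocyte classes. At steady state *H2-Aa* was at 10492 CPM in 15 type-2 and 9585 in 11 type-1 dendritic cells, 4674 in 51 B cells, 4178 in 123 resident macrophages, 2415 in 12 nonclassical and 883 in 10 classical monocytes. In the monocytes 1 cell held 173 of 357 and 75 of 131 of these UMIs. T cells (38) were at 452 CPM, with 147 of 151 UMIs in 1 cell. The 9 other macrophages at steady state held 1349 *H2-Aa* UMIs, and 9 plasmacytoid dendritic cells after AngII held 121.

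**Figure D1:**
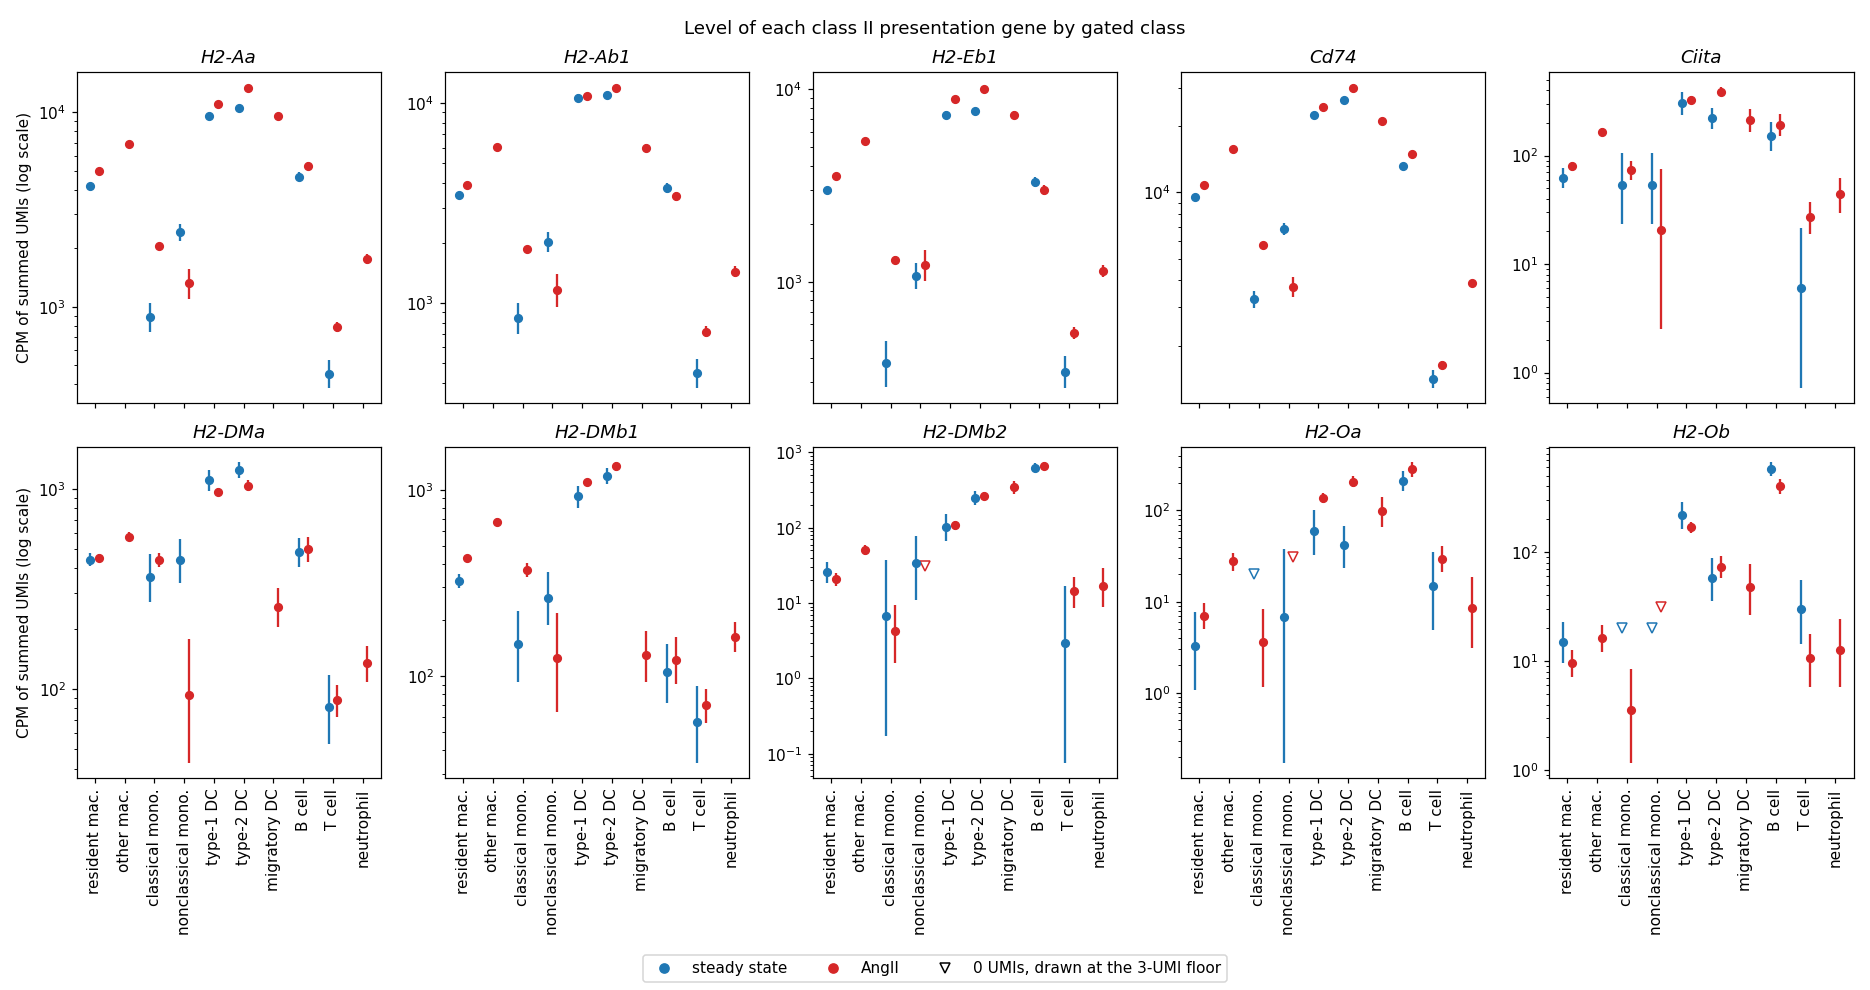
Level of each of the 10 genes by cell class on a log scale, in CPM, with points for steady state and AngII and bars for the exact 95% counting interval, and open triangles for 0 UMIs, drawn at the level of 3 UMIs; classes under 10 cells are not drawn. Type-2 dendritic cells stand highest for *H2-Aa* in both libraries (10492 and 13316 CPM), and B cells stand highest for *H2-DMb2*, *H2-Oa* and *H2-Ob*.

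*H2-Ab1*, *H2-Eb1* and *Cd74* followed the same order with some shifts. *Cd74* was the most abundant of the 10 genes in every class of at least 10 cells, from 29851 CPM in type-2 dendritic cells after AngII down to 726 in type-2 innate lymphoid cells. It reached 24468 CPM in type-1 and 21128 in migratory dendritic cells, 15802 in other macrophages, 14878 in B cells, 10796 in resident macrophages and 5797 in classical monocytes. *H2-Ab1* and *H2-Aa* did not keep 1 ratio across classes, although their products pair in I-A. Per *H2-Aa* UMI there were 0.984 *H2-Ab1* UMIs in type-1 and 0.890 in type-2 dendritic cells after AngII, 0.780 in resident macrophages, 0.643 in B cells and 0.621 in migratory dendritic cells. Steady state B cells (0.808) and resident macrophages (0.830) also stood below type-1 (1.11) and type-2 (1.05) dendritic cells.

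Seen cell by cell, *H2-Aa* was found in every conventional and migratory dendritic cell and nearly every B cell, but not in every macrophage. The share of cells with an *H2-Aa* UMI was 100% in both conventional dendritic classes of each library and in migratory dendritic cells, 96.1% and 98.0% in B cells, 83.7% and 85.6% in resident macrophages, 87.9% in other macrophages after AngII, and 30.0% and 68.2% in classical monocytes. T cells showed it in 13.2% and 46.4% of cells, at median depths of 8186 and 1162 UMIs against 10248 and 2051 in resident macrophages. With each cell thinned to 1000 UMIs, and shallower cells left out, the shares were 63.9% and 79.8% in resident macrophages, 86.9% in other macrophages after AngII, 48.3% in classical monocytes after AngII and 2.63% and 27.3% in T cells. Thinning left out 1 of 123 resident macrophages at steady state, 211 of 870 after AngII, 677 of 1197 other macrophages and 121 of 293 T cells. The T cell level came from few cells: at steady state 4 of 38 T cells held 99.0% of the 888 UMIs of the 4 classical genes, and after AngII 30 of 293 held 75.5% of 4879. Among 9 NK cells after AngII, 8 had no UMI of these genes. In 1 cluster of 118 cells, all in the neutrophil gate, *H2-Aa* was at 120 CPM, against 1762 in the whole neutrophil gate, where the 6 macrophage markers summed to 1314 CPM.

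The sum of *H2-Aa*, *H2-Ab1*, *H2-Eb1* and *Cd74* in a cell, as CPM of that cell, had a median of 12589 in steady state resident macrophages with an interquartile range of 1267 to 26815. After AngII it was 17323 in resident and 28347 in other macrophages, 51447 in type-1, 58974 in type-2 and 32710 in migratory dendritic cells, and 30013 in B cells. Migratory dendritic cells and other macrophages both spread widely, with interquartile ranges of 16992 to 53271 and 12676 to 42650 CPM. No dendritic cell of these classes in either library lay below 2000 CPM, and the lowest was at 7193. In contrast 30.1% of steady state resident macrophages (22.1% to 39.0%) lay below 2000 CPM and 33.3% at or above 20000. After AngII 13.6% of resident and 7.27% of other macrophages lay below 2000 CPM, and 46.9% and 63.7% at or above 20000. Classical monocytes after AngII spread widely, with 31.8% below 2000 CPM and 23.8% at or above 20000.

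**Figure D2:**
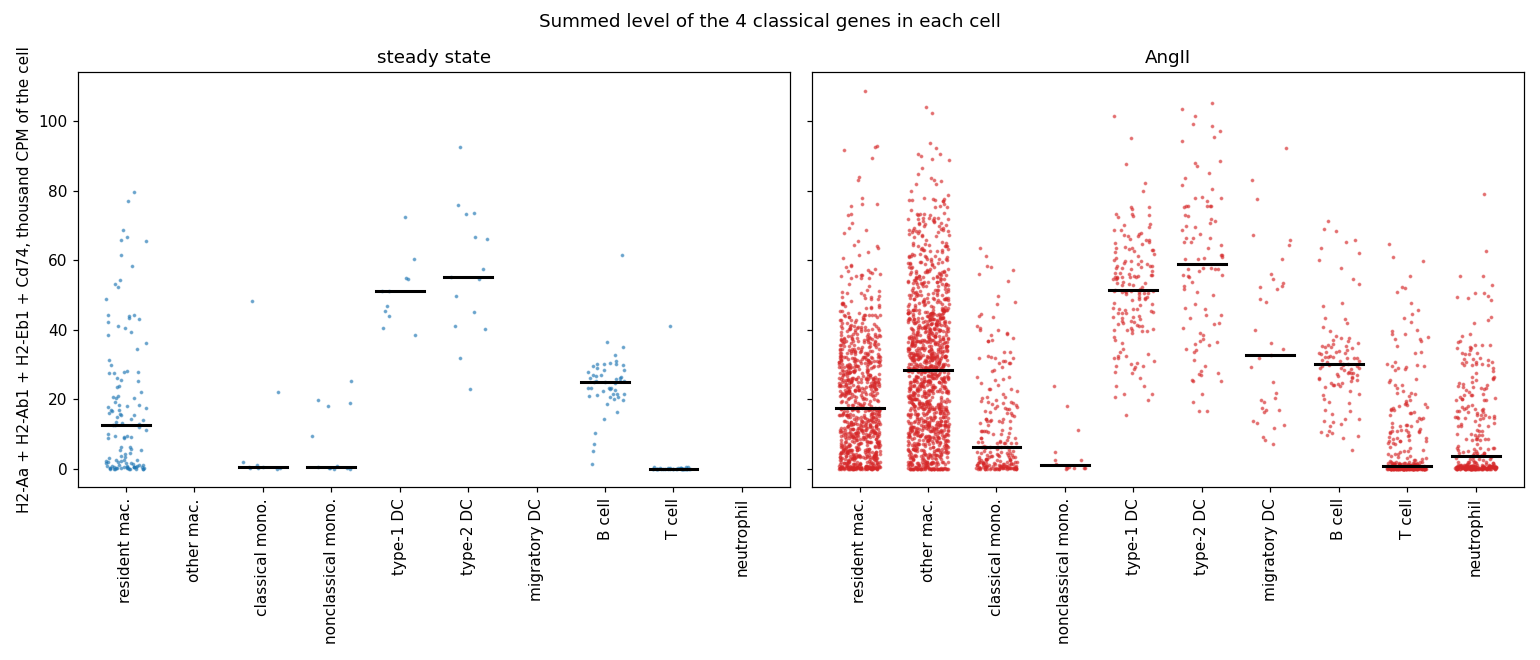
Summed level of *H2-Aa*, *H2-Ab1*, *H2-Eb1* and *Cd74* in each cell, as CPM of that cell on an axis in units of 1000, by class for steady state (left) and AngII (right); each point is 1 cell and the bar is the median of the class. Resident macrophages fill the range from 0 upwards, while conventional dendritic cells start well above 0.

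*Ciita* followed the classical genes at a level far below theirs. It was at 389 CPM (352 to 430) in type-2, 327 in type-1 and 212 in migratory dendritic cells after AngII, 192 in B cells, 165 in other macrophages, 79.5 in resident macrophages and 73.5 in classical monocytes, against 27.2 in T cells. At steady state it was at 304 CPM in type-1 and 221 in type-2 dendritic cells, 152 in B cells and 62.4 in resident macrophages, against 5.99 in T cells, which held 2 UMIs in all. All 11 type-1 and all 15 type-2 dendritic cells at steady state held a *Ciita* UMI, at median depths of 21019 and 25744 UMIs, as did 30.9% of resident macrophages and 2.63% of T cells.

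*H2-DMa* and *H2-DMb1*, the common pair of H2-M, were also highest in conventional dendritic cells. After AngII *H2-DMa* was at 1038 CPM in type-2 and 962 in type-1 dendritic cells, 578 in other macrophages, 500 in B cells, 452 in resident macrophages, 439 in classical monocytes, 256 in migratory dendritic cells and 87.7 in T cells. Classical monocytes thus held as much *H2-DMa* as resident macrophages (ratio 0.97, 0.89 to 1.06) with less *H2-Aa* (0.41, 0.39 to 0.42), and *Ciita* had a ratio of 0.92 (0.74 to 1.15). *H2-DMb1* was at 1336 CPM in type-2 and 1098 in type-1 dendritic cells, 673 in other and 431 in resident macrophages, and fell to 129 in migratory dendritic cells and 122 in B cells.

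The second beta gene, *H2-DMb2*, was highest where *H2-DMb1* was low, in B cells and migratory dendritic cells, and otherwise followed the order of *H2-DMb1* from type-2 and type-1 dendritic cells to other and resident macrophages. *H2-DMb2* was at 662 CPM in B cells after AngII and 630 at steady state, 344 in migratory and 263 in type-2 dendritic cells, 108 in type-1 dendritic cells, 50.7 in other and 20.6 in resident macrophages, and 4.32 in classical monocytes. Of the UMIs of both beta genes together, *H2-DMb2* took 84.4% (79.9 to 88.2) in B cells after AngII and 85.7% (80.4 to 89.97) at steady state. In migratory dendritic cells it took 72.7% (64.8 to 79.6), 109 UMIs in 13 cells against 41 of *H2-DMb1*. In every other class of at least 10 cells the share was between 0 and 17.3%, with 16.5% and 17.3% in type-2 and 8.94% and 10.0% in type-1 dendritic cells. The share in migratory dendritic cells was 72.7% in the 33 cells without a B cell marker and 70.7% in the 27 without markers of a second lineage. The beta genes are alike in sequence, yet of the 410 windows of 91 bases, the length of the transcript read, in the last 500 bases of the transcripts, 51 of *H2-DMb1* (12.4%) and 0 of *H2-DMb2* were found in the other gene.

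A further class II beta gene outside the 10 was also highest in B cells and migratory dendritic cells. *H2-Eb2* was at 202 CPM in migratory dendritic cells (64 UMIs) and 112 in B cells (45 UMIs) after AngII, and 109 in B cells at steady state. It was at 6.93 CPM in type-2 and 2.26 in type-1 dendritic cells, and 5.45 and 3.80 in other and resident macrophages after AngII. In both genes B cells and migratory dendritic cells therefore stood above the other dendritic classes.

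*H2-Ob* and *H2-Oa*, the pair of H2-O, were highest in B cells and next in conventional dendritic cells. *H2-Ob* was at 577 and 400 CPM in B cells (steady state and AngII), 218 and 169 in type-1, 58.0 and 73.3 in type-2 and, after AngII, 47.4 in migratory dendritic cells. *H2-Oa* was at 211 and 282 CPM in B cells, 59.9 and 136 in type-1, 41.4 and 206 in type-2 and 97.9 in migratory dendritic cells. In resident macrophages both stayed at or below 15.1 CPM. The share of cells with an *H2-Oa* or *H2-Ob* UMI (2.99% and 4.25% after AngII, 2.44% and 12.2% at steady state) was not clear of that in T cells (9.22%, 4.10%, 7.89% and 18.4%). Presence of the 2 genes in resident macrophages was therefore not established. Relative to 100 UMIs of H2-M there were 64.8 and 53.1 of H2-O in B cells, 13.1 and 14.1 in type-1, 3.72 and 10.6 in type-2 and 19.9 in migratory dendritic cells, and 2.33 and 1.84 in resident macrophages.

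The 2 chains of H2-O were not balanced alike in all classes. *H2-Oa* took 73.8% of their UMIs in type-2 (68.2 to 78.8) and 44.5% in type-1 dendritic cells (40.3 to 48.8) after AngII, and 41.4% in B cells. At steady state the shares were 41.7%, 21.5% and 26.8%, lower in each of the 3 classes. The shift was not particular to them. Resident macrophages stood at 17.9% (6.06 to 36.9) at steady state and 42.4% (32.1 to 53.1) after AngII. T cells stood at 33.3% (11.8 to 61.6) and 73.6% (59.7 to 84.7). *H2-Oa* was also found outside the antigen-presenting classes: 10 type-2 innate lymphoid cells after AngII held 7 UMIs in 5 cells (94.1 CPM, 37.8 to 194). They held 1 UMI of *H2-Aa* and 0 of *H2-Ob* and *H2-DMa*, which allows up to 40.3 CPM (3 UMIs). The same cells held 69 UMIs of the 4 classical genes together, 54 of them *Cd74*, and 7 of the 10 held markers of a second lineage. The 293 T cells held 39 UMIs of *H2-Oa* in 27 cells and 14 of *H2-Ob*.

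**Figure D3:**
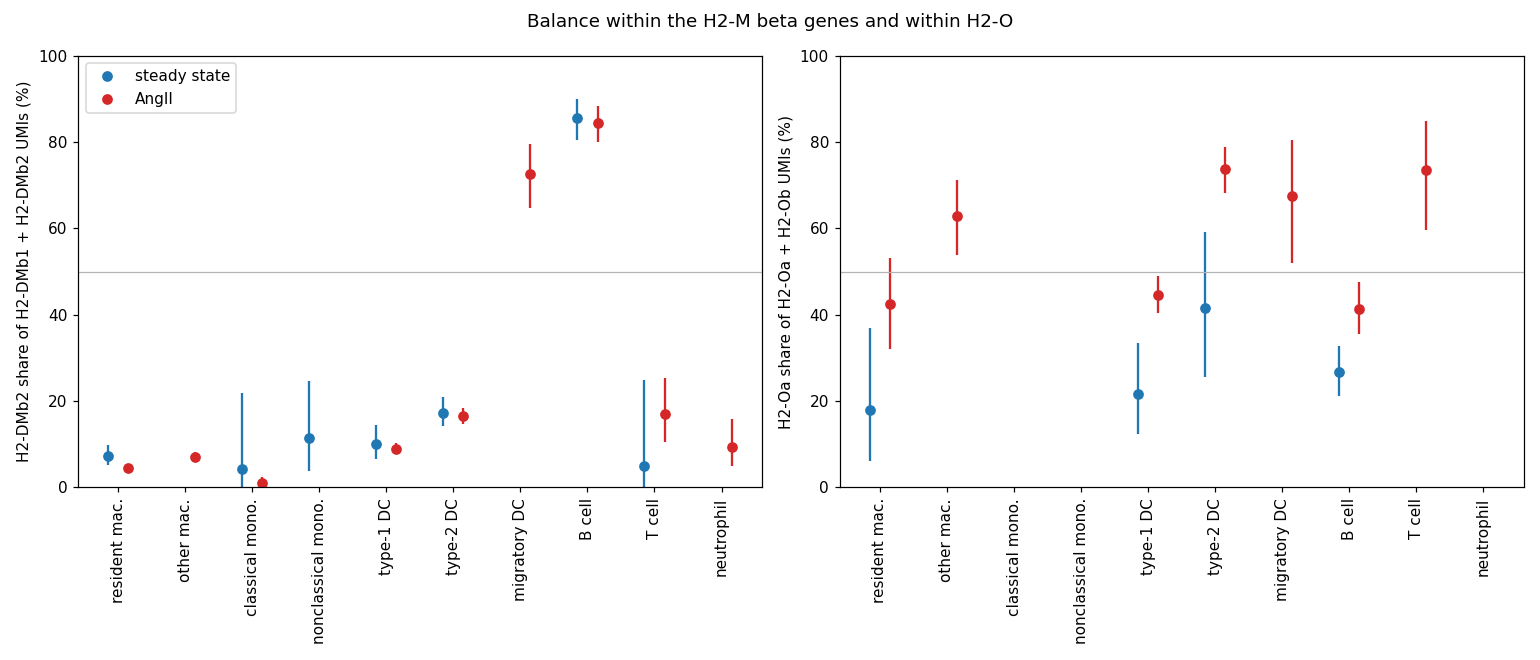
Share of *H2-DMb2* among *H2-DMb1* and *H2-DMb2* UMIs (left) and of *H2-Oa* among *H2-Oa* and *H2-Ob* UMIs (right) by class, in percent, with exact 95% intervals; classes with too few UMIs for a share are not drawn. B cells (85.7% and 84.4%) and migratory dendritic cells (72.7%) stand apart in the left panel. *H2-Oa* shares after AngII lie above those at steady state in B cells, both conventional dendritic classes and resident macrophages.

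Type-1 and type-2 dendritic cells differed most in *H2-DMb2*, *H2-Ob* and *H2-Oa*. Between type-2 and type-1 dendritic cells after AngII the ratio was 1.20 for *H2-Aa*, 1.09 for *H2-Ab1* and 1.22 for *Cd74*, but 2.44 (2.02 to 2.96) for *H2-DMb2* and 0.43 (0.33 to 0.56) for *H2-Ob*. Steady state gave 2.42 (1.53 to 3.97) and 0.27 (0.15 to 0.45) for the same genes. *H2-Oa* had a ratio of 1.51 after AngII and 0.69 (0.31 to 1.55) at steady state. The other accessory genes differed no more than the classical chains after AngII, with 1.19 (1.04 to 1.36) for *Ciita*, 1.08 (0.998 to 1.17) for *H2-DMa* and 1.22 (1.13 to 1.30) for *H2-DMb1*. Of the 15 type-2 dendritic cells at steady state, 14 also held markers of a second lineage, as did 52 of 94 after AngII. Migratory against type-2 dendritic cells gave 0.72 for *H2-Aa*, 0.50 (0.48 to 0.53) for *H2-Ab1*, 0.25 (0.19 to 0.31) for *H2-DMa* and 0.10 (0.07 to 0.13) for *H2-DMb1*, with 1.31 (1.04 to 1.64) for *H2-DMb2*. Set against other macrophages, type-1 and type-2 dendritic cells held 1.61 and 1.94 times the *H2-Aa*, 1.97 and 2.35 times the *Ciita*, 4.93 and 7.47 times the *H2-Oa*, and 10.4 and 4.48 times the *H2-Ob*. Migratory dendritic cells equalled other macrophages in *H2-Ab1* (0.99, 0.95 to 1.04) and were below them in *H2-DMb1* (0.19, 0.14 to 0.26).

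Among macrophages, class II genes were lower where resident markers were higher. In 4 ranges of the summed resident markers of a cell (below 2000, 2000 to 4000, 4000 to 8000 and at least 8000 CPM), *H2-Aa* stood at 8706, 6307, 3608 and 2200 CPM at steady state (15, 26, 43 and 48 cells). After AngII it stood at 6290, 4873, 4030 and 1920 CPM (1433, 343, 220 and 71 cells). This fall of *H2-Aa* was seen from each range to the next in both libraries. *Ciita* did not fall at each step at steady state, with 154, 54.3, 77.4 and 27.3 CPM. Lowest against highest range, the ratio was 3.96 (3.68 to 4.26) at steady state and 3.28 (3.03 to 3.55) after AngII for *H2-Aa*, 3.11 and 3.90 for *Cd74*, 5.08 and 4.25 for *H2-DMb1*, and 5.65 (2.96 to 11.5) and 14.6 (4.99 to 71.2) for *Ciita*. *H2-Ob* was not resolved, at 0.46 (0.01 to 4.64) and 1.44 (0.48 to 7.15).

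The median sum of the 4 classical genes per cell fell in parallel, from 40434 through 19664 and 8979 to 6197 CPM at steady state, and from 28188 through 21031 and 13319 to 3406 CPM after AngII. Cells below 2000 CPM made up 6.67%, 15.4%, 34.9% and 35.4% of the ranges at steady state, and 8.72%, 7.58%, 10.0% and 45.1% after AngII. With cells thinned to 1000 UMIs the median fell from 51000 to 5000 CPM at steady state and from 29000 to 3500 after AngII between the lowest and the highest range. Over single macrophages the rank correlation of the 2 sums was −0.37 at steady state (132 cells) and −0.31 after AngII (2067 cells), and −0.35 and −0.28 in thinned cells. These are descriptions, since cells of a library share its animals and its depth. *Ccr2* fell over the same ranges from 1136 to 185 CPM and from 1106 to 477 CPM.

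**Figure D4:**
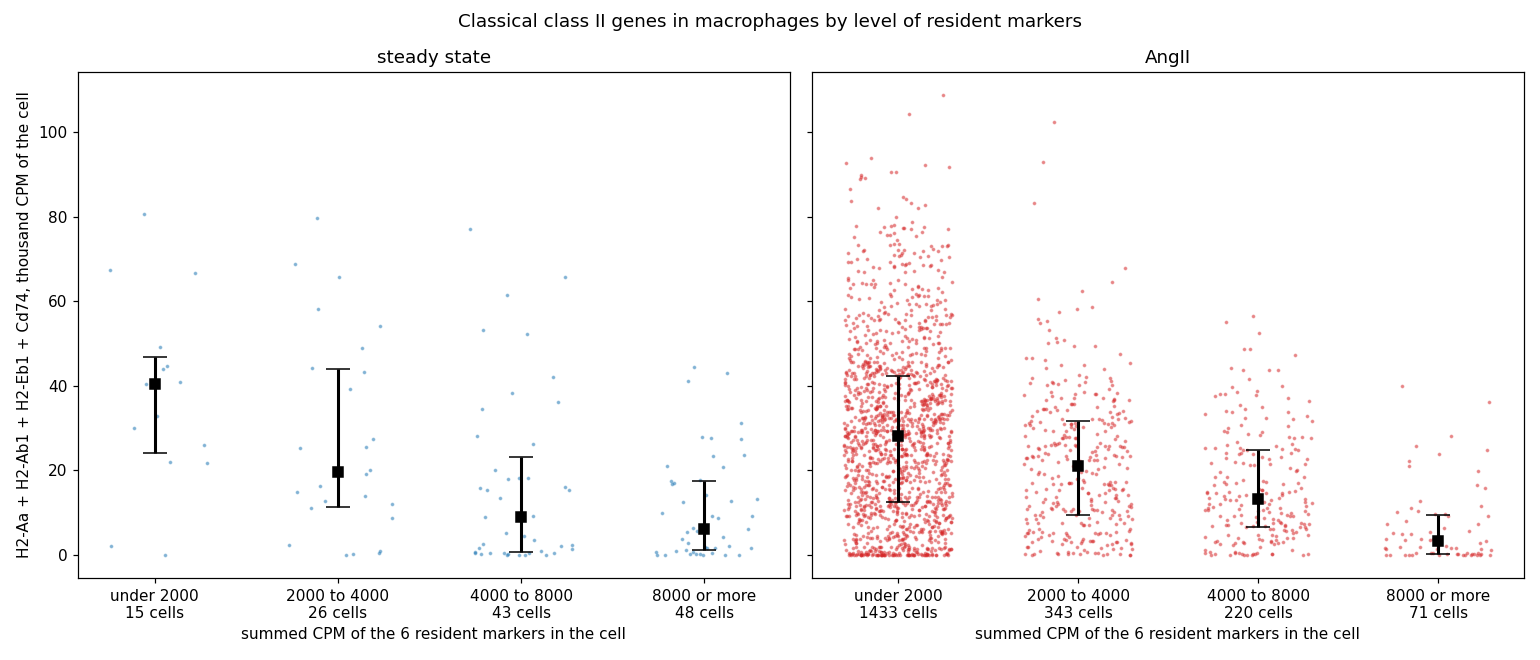
Summed level of the 4 classical genes per macrophage by range of the summed resident markers (x axis, CPM of the cell), for steady state and AngII, on an axis in units of 1000 CPM, with 1 point per cell, the median as a square and the interquartile range as a bar. The median falls from 40434 to 6197 CPM at steady state and from 28188 to 3406 CPM after AngII.

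Other macrophages held more of the classical genes, *Ciita* and H2-M than resident macrophages in both libraries. At steady state the 9 other macrophages were at 9366 CPM of *H2-Aa* against 4178, a ratio of 2.24 (2.11 to 2.38), and the ratios were 2.34 for *Ciita*, 1.95 for *H2-DMa* and 7.58 (4.50 to 12.6) for *H2-DMb2*. Of the 9 members with at least 20 UMIs in both groups together, 6 were at least 2-fold higher, against 7.89% of the 7668 genes measured. Without the cell with most UMIs of each gene this count was 3 (*H2-Ab1*, *H2-Eb1* and *H2-DMb2*), and *H2-Aa* was at 1.98 (1.85 to 2.12). *H2-Ob*, also among the 9, had 0 UMIs in other macrophages, which allows up to 20.8 CPM (3 UMIs), against 23 UMIs (15.1 CPM) in resident ones. The median of the 8 members with UMIs in both groups was 2.29 and that of all genes 0.90. After AngII the ratio was 1.37 (1.35 to 1.40) for *H2-Aa*, 1.54 for *H2-Ab1*, 1.51 for *H2-Eb1*, 1.46 for *Cd74* and 1.56 for *H2-DMb1*. The 3 of 10 members at least 2-fold higher were *Ciita* (2.08, 1.82 to 2.37), *H2-DMb2* (2.46) and *H2-Oa* (3.91, 2.64 to 5.89), against 3.19% of 11056 genes. The *H2-Oa* level of all other macrophages, 27.6 CPM (21.9 to 34.3) in 4.09% of cells, was not clear of that of T cells, 29.5 CPM (21.0 to 40.3). The 662 of them with neither reparative nor type-2 markers, as set out below, held 62.9 CPM (48.2 to 80.6), above the T cell level when all cells were summed. That level leans on a single cell, which held most of the 22 *H2-Oa* UMIs of other macrophages with a *Yfp* UMI. The level without that cell was not computed. The other subsets held at most 18.4 CPM. The member median was 1.55, that of all genes 0.95, and no member was 2-fold lower, against 4.49% of genes.

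With gates set on cells thinned to 1000 UMIs and levels taken at full depth, the ratio was larger in both libraries for the 4 classical genes, *Ciita*, *H2-DMa* and *H2-DMb1*, and smaller for *H2-DMb2* in both and for *H2-Oa* after AngII. At steady state 25 other macrophages stood at 8006 CPM of *H2-Aa* against 3135 in 98 resident ones (2.55, 2.44 to 2.68), and 9 of 9 measured members were at least 2-fold higher, against 4.42% of genes. *H2-DMb2* was at 2.41 (1.07 to 5.46) there, on 14 UMIs in each group. After AngII 762 other macrophages stood at 6520 CPM against 4070 in 377 resident ones (1.60, 1.57 to 1.64), and 4 of 10 members passed 2-fold, *Ciita* (2.26), *H2-DMb1* (2.05), *H2-DMb2* (2.09) and *H2-Oa* (2.56), against 2.81% of genes. Median depth in these groups was 14476 UMIs in other against 9752 in resident macrophages at steady state, and 2131.5 against 2479 after AngII. With gates at full depth it was 14476 against 10248 UMIs at steady state and 897 against 2051 after AngII. With levels also taken on the thinned cells, the *H2-Aa* ratio was 3.55 (2.97 to 4.23) at steady state and 1.45 (1.37 to 1.53) after AngII. The part of depth in the result was not tested further. The difference between libraries in the size of these ratios was not tested either.

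**Figure D5:**
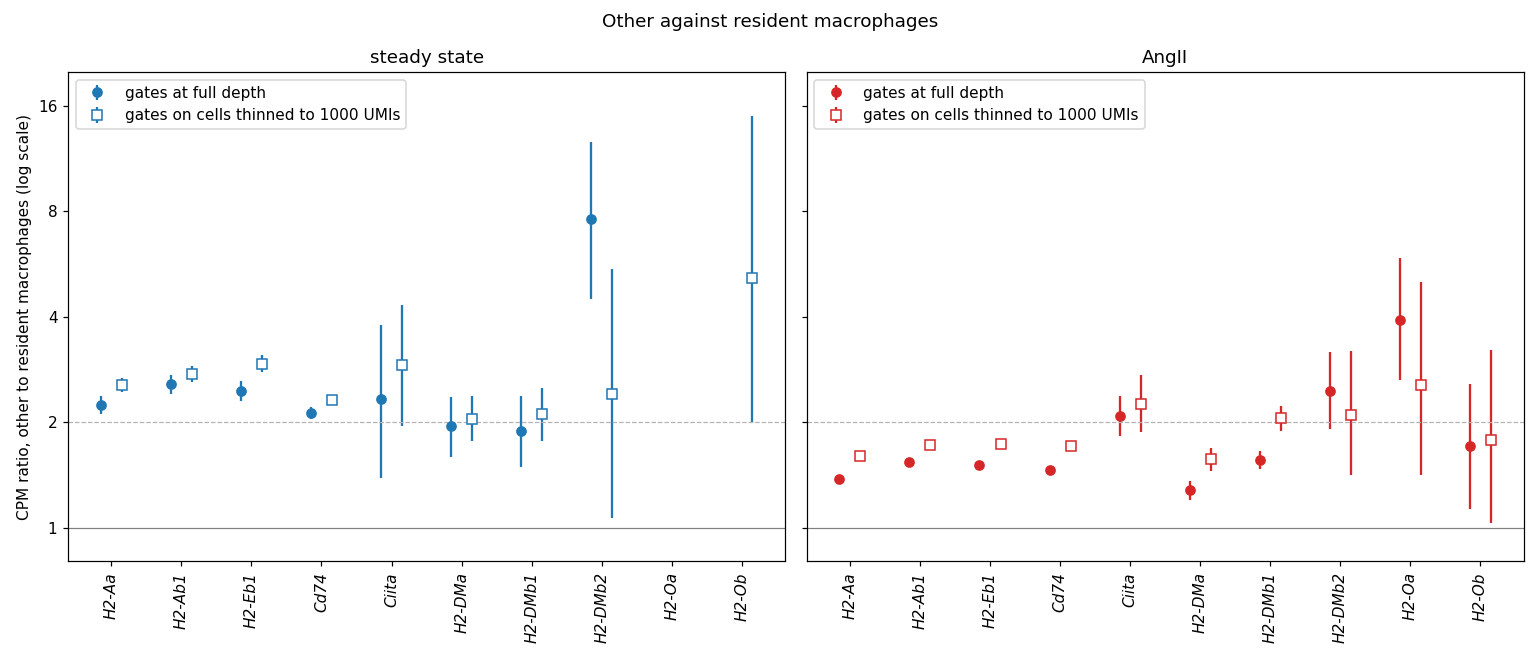
CPM ratio of other to resident macrophages for each of the 10 genes on a log scale, at steady state (left) and after AngII (right), for gates at full depth (filled) and on cells thinned to 1000 UMIs (open), with exact 95% intervals. All drawn ratios lie above 1, and those of the classical genes lie above 2 at steady state and below 2 after AngII.

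Among other macrophages after AngII, those with reparative markers (at least 2 of *Arg1*, *Spp1*, *Inhba*, *Gpnmb*, *Trem2* and *Mmp12*) held less of the classical genes than those without. In this class *H2-Aa* was at 5630 CPM (5429 to 5835) in the 143 cells with these markers only, 7287 in 309 with only type-2 markers (at least 2 of *Ear2*, *Retnla*, *Lyz1*, *Tnip3*, *Fn1* and *Ccl24*), 5272 in 83 with both and 8537 (8356 to 8721) in 662 with neither. *Ciita* was at 104, 198, 89.7 and 236 CPM in the same order. Among resident macrophages after AngII the *H2-Aa* levels were 3415, 6272, 5024 and 4919 CPM in 109, 257, 156 and 348 cells. The 109 resident cells with reparative markers only were thus lowest, while the 156 with both sets were not below the 348 with neither, also in *Cd74* (10920.1 against 10429.7 CPM). The subsets differed in median depth, with 1142, 1020, 3803 and 789 UMIs among other macrophages and 8324, 1878, 8304 and 1162 among resident ones.

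Between the conditions, resident macrophages differed by less than 2-fold in the classical genes, by an amount that changed with thinning of the cells. AngII against steady state, the ratio in resident macrophages was 1.20 (1.17 to 1.23) for *H2-Aa*, 1.13 for *H2-Ab1*, 1.19 for *H2-Eb1*, 1.13 for *Cd74*, 1.27 (1.02 to 1.61) for *Ciita*, 1.02 (0.94 to 1.11) for *H2-DMa* and 1.33 (1.21 to 1.47) for *H2-DMb1*. Only *H2-Oa* passed 2-fold (2.15, 0.85 to 6.97, on 39 and 5 UMIs), 1 of 10 against 7.72% of the 10842 genes measured, and no member was 2-fold lower, against 8.44% of genes. Within ranges of resident markers the direction was not uniform: *H2-Aa* had a ratio of 0.72, 0.77, 1.12 (1.06 to 1.18) and 0.87 from the lowest to the highest range, and *Cd74* 0.76, 0.74, 1.05 and 0.60. The mix of ranges differed more than the levels. Macrophages in the lowest range made up 11.4% of all at steady state and 69.3% after AngII, and those in the highest 36.4% and 3.43%. Condition, library, animals and depth cannot be told apart with 1 library each.

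Other macrophages after AngII stood below the 9 cells at steady state, with ratios of 0.73 for *H2-Aa* and *H2-Eb1*, 0.68 for *H2-Ab1*, 0.78 for *Cd74* and 0.26 (0.17 to 0.41) for *H2-DMb2*, the 1 of 10 members at least 2-fold lower against 10.2% of genes. Classical monocytes moved the other way, with 2.32 (1.94 to 2.78) for *H2-Aa*, 3.43 (2.63 to 4.56) for *H2-Eb1* and 2.51 for *H2-DMb1*, on only 10 cells at steady state, all of which held markers of a second lineage. Dendritic and B cells changed little in the classical chains, from 0.90 to 1.31, and more in *H2-Oa*, at 4.97 (2.94 to 9.04) in type-2 and 2.27 (1.33 to 4.21) in type-1 dendritic cells and 1.34 (0.98 to 1.85) in B cells. *H2-Ob* did not share this, with 1.26 (0.77 to 2.16), 0.78 (0.57 to 1.06) and 0.69 (0.56 to 0.86). *Ciita* was 1.76 times higher (1.38 to 2.27) in type-2 and 1.07 (0.84 to 1.40) in type-1 dendritic cells.

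*Yfp*+ resident macrophages (at least 1 *Yfp* UMI) held slightly less of the classical genes than *Yfp*− ones when all cells of the gate were summed. At steady state, in 95 against 28 cells, the ratio was 0.76 (0.71 to 0.82) for *H2-Aa*, 0.94 (0.87 to 1.03) for *H2-Ab1*, 0.81 for *H2-Eb1* and 0.85 for *Cd74*. *Ciita* was at 53.8 against 125 CPM, 0.43 (0.27 to 0.72), the 1 of 9 measured members at least 2-fold lower, against 4.2% of genes. After AngII, in 229 against 641 cells, the ratios were 0.84 (0.82 to 0.86), 0.81, 0.87 and 0.88 for the same 4 genes and 0.67 (0.55 to 0.81) for *Ciita*, with 0 of 10 members at least 2-fold lower, against 1.51% of genes. In other macrophages after AngII, 94 against 1103 cells, *H2-Aa* was at 0.89 (0.86 to 0.93) and *Cd74* at 0.98, and *H2-Ob* was the 1 of 10 at least 2-fold lower, 0.43 (0.11 to 1.17), against 6.3% of genes. A *Yfp* UMI is found more readily in a deep cell: median depths were 11283 against 5771 UMIs, 8949 against 1640 and 1227 against 876, and the part of depth was not tested. Among all macrophages by range of resident markers after AngII, each of the 4 classical genes had a ratio below 1 in the 3 lower ranges, with 0.87, 0.78 and 0.81 for *H2-Aa* from the lowest up. In the highest range, with 24 against 47 cells, the genes parted: *H2-Eb1* was higher in *Yfp*+ cells (1.58, 1.27 to 1.97) and *H2-Ab1* lower (0.72, 0.59 to 0.87), with 1.01 (0.86 to 1.19) for *H2-Aa* and 1.10 (0.98 to 1.24) for *Cd74*. In the highest range at steady state, with 37 against 11 cells, *H2-Aa* was at 0.53 (0.46 to 0.62), *H2-Eb1* at 0.47 and *Cd74* at 0.62.

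Other genes of the pathway, a list of 29 for promoter factors, interferon-gamma signalling, proteases and turnover, seldom passed 2-fold between the macrophage classes after AngII. In other against resident macrophages after AngII, 0 of the 27 measured were at least 2-fold higher, against 3.19% of all genes. The 2 lower ones, against 4.49% of all genes, were the turnover ligase *March8* (0.43) and *Il10* (0.21), a cytokine that lowers class II. The RFX subunits *Rfxap* and *Rfxank* had ratios of 1.05 (0.80 to 1.37) and 1.16 (0.74 to 1.79). In AngII against steady state resident macrophages 4 of the 27 measured were at least 2-fold higher, against 7.72% of all genes. All 4 encode enzymes of the endosome that cut antigen or invariant chain or reduce disulfide bonds. These were *Ctss* (2598 against 1203 CPM, 2.16), *Ctsl* (2.86), *Lgmn* (2.11) and *Ifi30* (3.23). In other macrophages, where steady state held only 9 cells, the same 4 were among 9 of 24 measured that were at least 2-fold higher. The rest of these were *Rfxap*, *Irf8*, *Ifngr1*, *Ifngr2* and *March8*. Another 4 (*Nfya*, *Irf4*, *Irf1* and *Cd83*) were at least 2-fold lower there, against 10.2% of all genes. *Irf4*, a factor at the *Ciita* gene, was the 1 lower in resident macrophages (0.33), against 8.44% of all genes.

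Across dendritic classes after AngII the 2 interferon regulatory factors parted, with *Irf8* at 1717 CPM in type-1 and 41.6 in type-2 and *Irf4* at 1.13 and 58.4. Migratory dendritic cells had 0 UMIs of *March1*, the ligase that removes class II from the surface, which allows up to 9.47 CPM (3 UMIs), against 211 CPM in type-1 and 116 in type-2 dendritic cells. They held 701 CPM of *Cd83*, which opposes *March1*, against 133 and 153, and 3796 CPM of *Ifi30* against 1272 and 3078. *Lgmn* was a macrophage gene, with 1585 and 999 CPM in resident and other macrophages after AngII and at most 145 in the dendritic classes.

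By the mean pattern of the 4 classical genes over the 10 classes of at least 20 cells after AngII, the most alike of 9187 genes outside the lists were *Crip1* (Pearson r 0.92, 4486 CPM in type-1 dendritic cells and 1023 in T cells), *Cbfa2t3* (0.87), *Czib* (0.84), *Syngr2* (0.84) and *Limd1* (0.82). Among the members, r with that mean was 0.86 for *Ciita*, 0.83 for *H2-DMa*, 0.69 for *H2-DMb1*, 0.67 for *H2-DMb2*, 0.61 for *H2-Oa* and 0.56 for *H2-Ob*. *Crip1* and *Cbfa2t3* were thus more alike in pattern than 6 of the 10 members, over points that share a library and its depth. At steady state only 3 classes were large enough, so that the leading genes *Clpx*, *Anxa7*, *Ankrd13a*, *Btbd1* and *Ranbp10* describe no more than the order of resident macrophages, B cells and T cells.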

How the data were processed

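Each condition gave 1 library of sorted adventitial immune cells (10x 3' v3.1 chemistry). The authors mapped reads with Cell Ranger 3.1.0 to GRCm38.p6 plus eYFP and deposited raw UMI counts per gene and barcode. The study's stated cell numbers equal the deposited barcodes, 346 at steady state and 4419 after AngII, with 4009678 and 20481854 UMIs. Its stated filter (300 to 6500 genes, at most 5% mitochondrial UMIs) left 306 and 4198. Doublets were not called. Cells with markers of a second lineage were removed in an alternative.

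A cell took the lineage with most of its 6 markers detected, at least 2, and type-2 dendritic cells needed *Cd209a*. Cells with a tie or no lineage stayed unassigned. The UMIs of a class were summed and scaled to CPM. Intervals are exact Poisson for levels, exact conditional for ratios and Clopper-Pearson for shares, all at 95%, covering counting error only. With 1 library per condition no p-value was computed. A gene counted as measured from 20 UMIs in both groups together and as higher or lower from 2-fold. The members, marker lists, pathway list and rules were chosen with earlier results of these data known. All 10 members are named, as are pathway genes picked for their values from the list of 29, and the 5 genes per library most alike on log2(CPM + 10) among those with at least 100 UMIs.

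Cells were thinned without replacement to 1000 UMIs. The ranges of resident markers, gates set on thinned cells, the 2000 and 20000 CPM limits and the cells checked for *H2-DMb2* were chosen after seeing the data. Ratios were tested on simulated data. Python 3.11.15, NumPy 2.4.6, SciPy 1.17.1, leidenalg 0.10.2 and Matplotlib 3.10.9 were used. Gene positions are from GENCODE M21, with the identifiers of the files, and promoters from RefSeq on GRCm38.p6.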

Additional observations from a re-analysis of the deposited data

Results flagged for a closer look

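The ratio of AngII to steady state went opposite ways in the 2 macrophage classes for 4 genes, a difference that was not tested. It was 1.20 in resident and 0.735 in other macrophages for *H2-Aa*, 1.13 and 0.676 for *H2-Ab1*, 1.19 and 0.733 for *H2-Eb1*, and 1.13 and 0.779 for *Cd74*. The other macrophages at steady state were only 9 cells.

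Class II transcripts also stood above the T cell level (452 CPM of *H2-Aa* at steady state and 786 after AngII) in cells that entered no comparison. *H2-Aa* was at 3229 CPM in the 13 steady state cells with a tie between lineages, 6393 in the 413 such cells after AngII, 6459 in the 465 AngII cells with no lineage, and 4543 in the 21 AngII cells of the mast cell gate, of which 18 held markers of a second lineage.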

How the results depend on the processing

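Of 595 ratios of single genes under the alternatives, 366 stayed within their counting interval, 218 moved out of it in the same direction and 11 changed direction. Of 90 counts of members or classes, 66 stayed within 1.5 times. Leaving the members out of the CPM total changed 1 count, from 6 to 7 (other against resident macrophages at steady state). The classes with more *H2-DMb2* than *H2-DMb1* (3) and with *H2-Aa* in at least 90% of cells (7) stayed within 1.5 times under every alternative run for them. The classes counted were not the same ones in clusters. No cluster was mostly migratory dendritic cells, and at steady state none was mostly dendritic cells of any class.

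The counts of members past 2-fold were small and moved as follows. Other against resident macrophages, 6 at steady state became 3 without the cell with most UMIs of each gene, and 3 after AngII became 1 with all barcodes, with at least 3 markers and with thinning before gating. AngII against steady state in resident macrophages, 1 became 0 with all barcodes, thinning, at least 100 UMIs or gates on thinned cells, and 2 by the mean over cells or in clusters. In other macrophages 1 became 2 with gates on thinned cells. *Yfp*+ against *Yfp*−, 1 in steady state resident macrophages became 0 with all barcodes, thinning or at least 100 UMIs. In AngII resident macrophages 0 became 1 with thinning and 2 by the mean over cells. In AngII other macrophages 1 became 0 with at least 3 markers, clusters, at least 100 UMIs or gates on thinned cells, 2 with thinning, the mean over cells or second-lineage cells removed, and 3 without the top cell. The cause was not tested.

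The ratios that changed direction were these. AngII to steady state, *Ciita* in resident macrophages became 0.973 by the mean over cells, and *H2-Eb1* in other macrophages 1.03 with second-lineage cells removed. *Yfp*+ to *Yfp*− in AngII resident macrophages, *H2-Aa* became 1.001 and *H2-Eb1* 1.02 in clusters, and *Ciita* 1.92 (0.555 to 5.43) with thinning and 1.03 by the mean over cells. In AngII other macrophages *Cd74* became 1.001 with all barcodes and 1.02 by the mean, and *H2-Oa* 0.400 by the mean, 0.0981 without the top cell and 0.621 in clusters.

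Clusters gave no value for other macrophages at steady state, since no cluster there was mostly such cells. No paired analysis was possible because each condition has 1 library. The depth of AngII cells limits what a share of cells or a count under 10 UMIs can show, and *H2-Oa*, *H2-Ob* and *Ciita* in macrophages rest on such depth.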
